A study of Homo sapiens with 7 samples.

Results

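Acute-phase protein genes encode plasma proteins that the liver secretes in larger or smaller amounts during infection or injury, and 10 of them were examined in the human liver cancer cell line HepG2: CRP, SAA1, SAA2, SAA4, HP, HPX, ORM1, ORM2, LBP and ITIH4. They were found in the expression table by symbol, where each row is a locus and may list several symbols. The 10 genes filled 9 of the 30032 rows and 8 distinct loci, because SAA2 and SAA4 shared a row, ORM1 and ORM2 shared a row, and ITIH4 stood in 2 rows with the same coordinates. For each locus, the nucleosome positions that carried H3K4me3, H3K9ac, H3K27ac, H3K27me3 or H3K9me3 were counted over the locus plus 10 kb on either side. The series holds 7 samples of HepG2, 1 for each assay: native MNase-Seq, ChIP-Seq of the 5 histone marks and RNA-Seq. The cells were cultured HepG2 with no cytokine or other treatment given in the labels, and there was no second cell type or condition. With 1 sample per assay there is no replicate error and no P value, and every value below describes these libraries.

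In the acute phase, interleukin-6 reaches hepatocytes through a receptor made of IL6R and IL6ST and activates the kinases JAK1, JAK2 and TYK2 and the transcription factor STAT3, while interleukin-1 acts through NF-kappa-B, and C/EBP factors act with both at the promoters. CRP is a pentraxin that binds phosphocholine on microbes and dying cells. SAA1 and SAA2 are the inducible serum amyloid A proteins and SAA4 is the constitutive one, all carried on high-density lipoprotein. HP captures free haemoglobin, HPX binds free haem, ORM1 and ORM2 are lipocalins that bind drugs and small hydrophobic molecules, LBP hands bacterial lipopolysaccharide to CD14, and ITIH4 is a heavy chain of the inter-alpha-trypsin inhibitor family. H3K4me3, H3K9ac and H3K27ac accompany active promoters, H3K27ac also active enhancers, and H3K27me3 and H3K9me3 silent chromatin. A nucleosome with exactly H3K4me3, H3K9ac and H3K27ac is called "T" here.

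Promoter sequences of RefSeq (build GRCh38.p14, from 250 bases before to 50 bases after the start of a gene) were found for 5 of the 10 genes, and are shown because the 5 loci carried different marks: none at CRP, a run of "T" in the row of SAA4, single "T" in the row of ORM1, H3K27ac alone at HPX and H3K4me3 without H3K27ac at ITIH4. Capitals mark every match to 5 motifs on either strand: TTCNNNGAA (the STAT palindrome), CTGGGA (a core of interleukin-6 response elements), TTNNGNAA (a loose C/EBP form), a loose kappa B form and TATAAA (the TATA box). Matches that overlap run together. The peak lists are in hg19, as the labels list, so these GRCh38 sequences were not laid over the peaks.
CRP, chr1:159714540-159714839, minus strand: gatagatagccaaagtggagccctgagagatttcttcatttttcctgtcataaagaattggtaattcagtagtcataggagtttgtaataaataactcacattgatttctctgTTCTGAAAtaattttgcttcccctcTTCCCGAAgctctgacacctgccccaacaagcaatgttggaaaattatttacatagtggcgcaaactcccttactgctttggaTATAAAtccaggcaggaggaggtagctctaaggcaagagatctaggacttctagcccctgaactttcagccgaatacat
SAA4, chr11:18236753-18237052, minus strand: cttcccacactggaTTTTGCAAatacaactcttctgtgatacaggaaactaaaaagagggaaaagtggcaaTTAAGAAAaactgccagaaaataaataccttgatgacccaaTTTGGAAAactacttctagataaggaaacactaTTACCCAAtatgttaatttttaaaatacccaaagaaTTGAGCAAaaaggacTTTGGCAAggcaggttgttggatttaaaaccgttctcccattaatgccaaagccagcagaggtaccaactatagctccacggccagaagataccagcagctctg
HPX, chr11:6440938-6441237, minus strand: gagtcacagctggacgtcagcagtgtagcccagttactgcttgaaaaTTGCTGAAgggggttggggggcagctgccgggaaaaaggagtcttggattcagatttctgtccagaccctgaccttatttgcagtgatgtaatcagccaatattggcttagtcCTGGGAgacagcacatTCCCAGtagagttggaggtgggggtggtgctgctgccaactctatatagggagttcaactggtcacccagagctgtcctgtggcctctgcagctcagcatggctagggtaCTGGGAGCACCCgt
ORM1, chr9:114322848-114323147, plus strand: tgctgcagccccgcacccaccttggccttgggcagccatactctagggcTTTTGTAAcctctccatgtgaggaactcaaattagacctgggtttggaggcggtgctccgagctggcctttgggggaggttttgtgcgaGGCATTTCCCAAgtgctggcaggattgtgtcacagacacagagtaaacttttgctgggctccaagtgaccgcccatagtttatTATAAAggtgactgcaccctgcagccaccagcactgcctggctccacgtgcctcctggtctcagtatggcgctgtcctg
ITIH4, chr3:52830623-52830922, minus strand: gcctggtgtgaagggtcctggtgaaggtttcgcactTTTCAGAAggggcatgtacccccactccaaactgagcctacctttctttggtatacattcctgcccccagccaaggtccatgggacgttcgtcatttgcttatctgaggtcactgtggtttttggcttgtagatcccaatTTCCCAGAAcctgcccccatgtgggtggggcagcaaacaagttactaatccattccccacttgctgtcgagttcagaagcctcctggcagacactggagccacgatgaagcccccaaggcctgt

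The C/EBP form was in all 5 of these promoters, with 6 matches in SAA4, 2 in CRP, 2 in ORM1, 1 in HPX and 1 in ITIH4. It was in 36.8% of the 35116 promoters of the same length. The STAT palindrome was in ITIH4 alone, and in 7.66% of all promoters. CTGGGA was in HPX with 3 matches and in ITIH4 with 1, which overlaps the STAT match, and in 33.3% of all promoters. TATAAA began at base -29 from the start in both CRP and ORM1, and was in 11.5% of all promoters. The kappa B form was in HPX and ORM1 and in 58.7% of all promoters, and its matches overlap CTGGGA in HPX and a C/EBP match in ORM1. The 5 promoters held 2 CpG in SAA4, 3 in CRP, 3 in HPX, 5 in ITIH4 and 7 in ORM1, against a median of 14 CpG over all promoters. A letter match is a description of the sequence and not a binding site.

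The level of RNA differed widely among these genes. Levels are FPKM as the authors computed them, which are per length and so can be set side by side between genes, and each is given for both deposited columns, called run 1 and run 2, which count as 1 sample. The files give no read counts behind these values, and in bulk RNA few cells with much of it and many cells with little cannot be told apart. An FPKM of at least 1 was reached in 7 of the 9 rows and in 51.3% of the 22113 named loci. These 7 rows list 9 of the 10 genes, ITIH4 only through a row that it shares with other genes. An FPKM of at least 100 was reached in 3 of the 9 rows, against 3.27% of the named loci.

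The lipocalin row of ORM1 and ORM2 was the highest, at 408.6 FPKM in run 1 against 398.3 in run 2, and stood at the 99.3rd percentile of the named loci. The row of SAA2, SAA4 and their read-through transcript SAA2-SAA4 followed with 284.2 and 293.7, at the 99.0th percentile. Neither row can be divided between its genes, and ORM1 and ORM2 are near-identical copies. HP had 138.9 and 130.6, at the 97.7th percentile, and its neighbour and near copy HPR had 16.8 and 17.8, so reads may have been shared between them. HPX had 18.8 and 19.6, at the 82.0th percentile.

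The other rows were lower. SAA1 stood at 9.46 FPKM in run 1 against 7.998 in run 2, at the 69.4th percentile, and part of this may belong to SAA2, whose sequence is almost the same. CRP had 4.55 and 5.20, at the 61.1st percentile. LBP had 0.757 and 0.946, at the 47.7th percentile, close to the middle of the table, where the median of the named loci was 1.24. ITIH4 stood in a row with MUSTN1, TMEM110 and TMEM110-MUSTN1 at 9.05 and 8.83, which cannot be assigned to 1 of these genes, and in a row of its own at 0.0516 and 0.0307. The numbering of the loci puts that row of its own on the strand opposite to ITIH4.

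**Figure D1:**
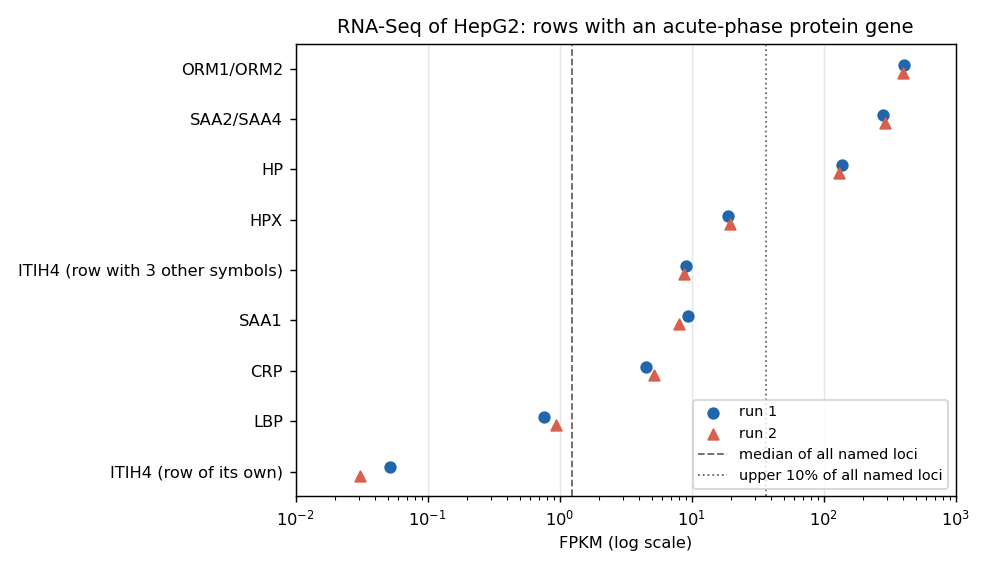
FPKM of the 9 rows with an acute-phase protein gene in run 1 (circles) and run 2 (triangles) on a log axis, with the median (1.24) and the bound of the upper 10% (36.4) of all named loci as lines. The rows of ORM1/ORM2, SAA2/SAA4 and HP lie above that bound in both runs, and LBP and the row of ITIH4 on its own lie below the median.

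The order of the rows was ORM1/ORM2, SAA2/SAA4, HP, HPX, SAA1 with the shared ITIH4 row, CRP, LBP and the ITIH4 row of its own. SAA1 and the shared ITIH4 row changed places between the runs, so their order is not resolved. The runs differed by over 1.5 times in 1 of the 9 rows, the ITIH4 row of its own, on the log2 scale with a pseudocount of 0.01, where its log2 ratio was -0.60. With a pseudocount of 1 that ratio was -0.029, and the runs differed by over 1.5 times in 0 of the 9 rows. Over all named loci, with the pseudocount of 0.01, the runs differed by that much in 14.6%, and in 1.54% of those with an FPKM of at least 1. The log2 ratio of run 2 to run 1 was 0.32 for LBP, -0.24 for SAA1, 0.19 for CRP and between -0.09 and 0.06 for HP, HPX, SAA2/SAA4, ORM1/ORM2 and the shared ITIH4 row.

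The windows of the 8 loci held 2108 listed nucleosome positions, each counted 1 time, and 63 of them were marked, which is 2.99% (exact Clopper-Pearson 95% interval 2.30 to 3.81, counting error only). In the whole map, which also covers DNA outside genes, 1.43% of positions were marked, so that share is not like for like. The windows of all named loci had a median of 9 marked positions and, taken separately, a median of 284 listed positions. A pooled share over those windows was not computed. A position without a mark is one that is in none of the peak lists used here. These lists hold 203848 marked positions, far fewer than the paper describes, so a mark absent here may be present in the paper's own set. Of the 63, 48 lay inside a locus and 15 in the flanks. H3K4me3 was at 38 positions, H3K27ac at 31, H3K9ac at 29 and H3K9me3 at 2. No position carried H3K27me3 in any of the 8 windows, whereas 31.2% of all named loci had at least 1 such position. By exact combination, 16 positions carried H3K4me3 alone, 15 H3K27ac alone, 11 were "T", 10 carried H3K4me3/H3K9ac, 4 H3K9ac alone, 4 H3K9ac/H3K27ac, 2 H3K9me3 alone and 1 H3K4me3/H3K27ac.

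At least 1 marked position was found in 6 of the 8 windows, and in 90.0% of all named loci. The same 6 had an activation mark, as did 78.4% of all named loci. H3K4me3 was in 5 of the 8 (73.7% of all), H3K9ac in 4 (73.7%), H3K27ac in 4 (67.9%) and H3K9me3 in 2 (31.9%). At least 1 "T" was found in 3 of the 8, the windows of SAA2/SAA4, HP and ORM1/ORM2, which hold 5 of the 10 genes, and in 63.2% of all named loci. These shares depend on the length of a locus, which was 2.30 kb at CRP, 3.72 kb at SAA1, 6.45 kb at HP and up to 84.6 kb at ITIH4, against a median of 36.6 kb. All named loci are counted by row, so an interval that several rows share is counted for each row. The 14033 with coordinates of their own, as 6 of the 8 have, had a median of 7 marked positions, 1 "T" and 22.4 kb. All 22113 had a median of 9 marked positions and 3 "T". The shares above were not computed for the 14033. The density of listed positions ran from 4.89 per kb at SAA1 to 5.60 per kb at ITIH4, beside a median of 5.19 per kb over the named loci, and at 3 of the 8 loci, HPX, LBP and ITIH4, it was above the bound of the upper 10% of named loci, 5.525 per kb.

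**Figure D2:**
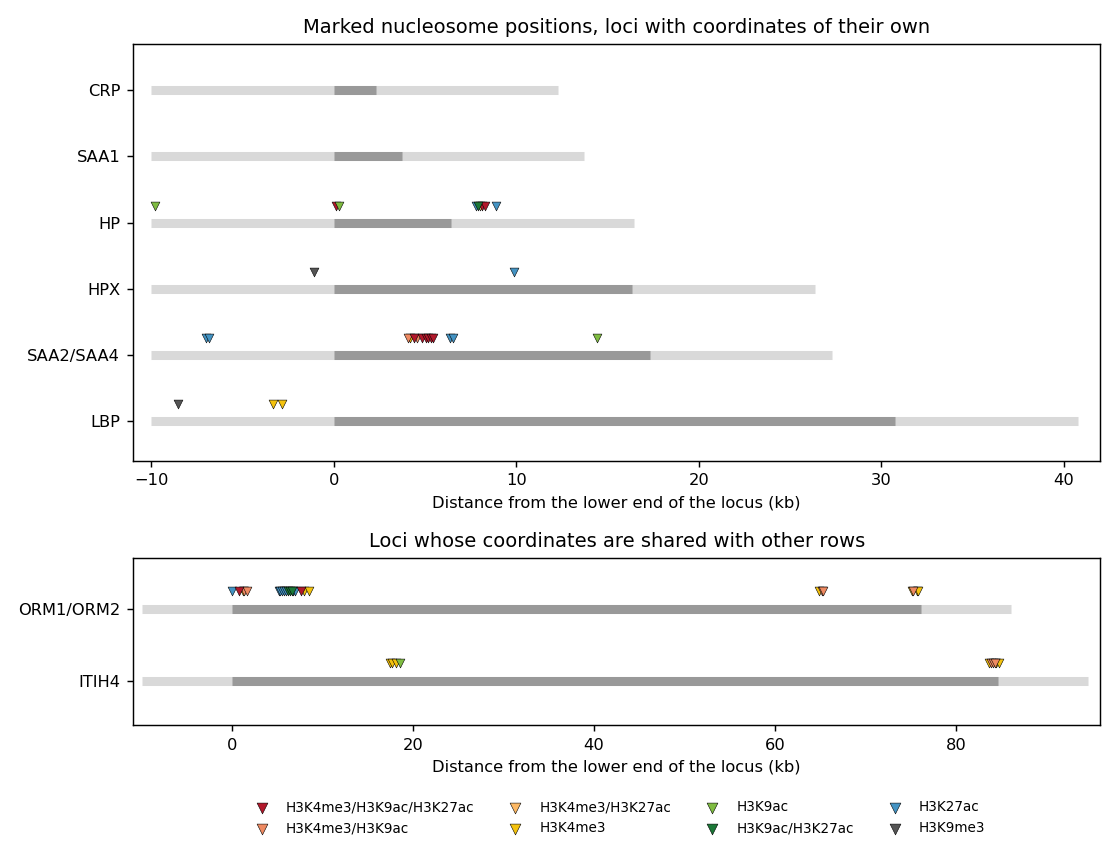
Marked nucleosome positions (triangles, coloured by the exact combination of marks) along each locus (dark bar) plus 10 kb (light bar), by distance from the lower end in kb. CRP and SAA1 have no marked position, the marks of SAA2/SAA4 and ORM1/ORM2 gather in short stretches, and the stretches at the far ends of the ORM1/ORM2 and ITIH4 loci lie over 60 kb from the lower end.

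CRP is listed on chromosome 1 from 159682079 to 159684379 on the minus strand. None of its 116 listed positions was marked. If positions are treated as independent draws, 3 counts of 116 are 2.59%, and the exact 95% interval reaches 3.13%. Marked positions can lie in adjacent runs, so these limits are approximate, and they do not cover marks under the peak threshold. The nearest position with any mark was 33.0 kb above the locus and carried H3K27me3, and the nearest on the other side, 68.1 kb below, also carried H3K27me3. The nearest with an activation mark was 210.3 kb above and 352.0 kb below, and the nearest "T" was 210.3 kb above and 2573 kb below. The gene thus had RNA in both runs inside a stretch of 2881 positions without an activation mark. APCS, the serum amyloid P pentraxin and the next named locus below, had an FPKM of 3.86 and also 0 marked positions in its window.

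SAA1 is listed on chromosome 11 from 18287808 to 18291523 on the plus strand and likewise had 0 of 116 positions marked, with the same limits. The nearest position with an activation mark lay 20.5 kb below, inside the SAA2/SAA4 locus, and 51.5 kb above. The nearest "T" was 29.5 kb below and 51.9 kb above. The next interval above, listed for GTF2H1, a subunit of the transcription factor TFIIH, begins 8.65 kb from SAA1, and that row had an FPKM of 24.3. The RefSeq order names HPS5 above SAA1, so the lower end of this interval may not be the start of GTF2H1.

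Expression without a marked position was uncommon in the table. Of 2888 named loci with coordinates of their own and an FPKM from 1 to under 10, 43 had no marked position in the locus plus 10 kb, or 1.49%. CRP and SAA1 are both among the 43. Among the 145 of these loci that are under 4 kb long, as CRP and SAA1 are, 11 had none, or 7.59%. Of the 2888 loci, 86.5% had at least 1 "T" in the window and 75.8% had 1 within 2 kb of the start, and their median was 10 marked positions and 3 "T".

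SAA2 and SAA4 are listed together on chromosome 11 from 18252902 to 18270221 on the minus strand, and in the RefSeq order SAA4 lies at the lower end, then SAA2, then SAA1 beyond. Of 190 positions, 14 were marked, or 7.37% (4.09 to 12.1), all with activation marks. They formed a stretch of 11 marked positions among 14 listed from 18256892 to 18259513, in the lower part of the locus. In this stretch 9 adjacent positions, with midpoints 4.06 to 5.42 kb from the lower end, carried H3K4me3, and they started with H3K4me3/H3K9ac, H3K4me3 alone, "T" and H3K4me3/H3K9ac, followed by 5 "T" in a row. A run of 5 "T" or more was found at 18.8% of named loci. Beyond 3 unmarked positions, another 2 carried H3K27ac alone.

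The higher end of the locus, on the SAA2 side, differed from the lower part. No "T" lay within 2 kb of that end, and none of the 18 positions there was marked. The nearest marked position was H3K9ac alone, at -2.88 kb from it, where minus means below. All 6 "T" of the window lay between -12.9 and -11.9 kb from the higher end. Outside the locus, 2 adjacent positions with H3K27ac alone were centred at -6.99 and -6.83 kb from the lower end. All "T" found in the windows of SAA1, SAA2 and SAA4 thus lay in this 1 stretch, on the SAA4 side. SAA1 had no mark in its window, which overlaps that of SAA2/SAA4 by 2414 bp.

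HP is listed on chromosome 16 from 72088508 to 72094955 on the plus strand, and 9 of its 140 positions were marked, or 6.43% (2.98 to 11.9). At the start of the gene, 1 "T" was centred 129 bp downstream and the next position, at 299 bp, carried H3K9ac alone. These were the only marked positions inside the locus, and in the flank before it 1 position carried H3K9ac alone, at -9.80 kb. Loci with an FPKM of at least 100 had a median of 12 marked positions and 5 "T" in their windows, where these have coordinates of their own. Of these 418 loci, 1 had no marked position (0.239%), 97.4% had at least 1 "T" in the window and 89.7% had at least 1 "T" within 2 kb of the start, as HP did. A further 6 marked positions lay 1.33 to 2.44 kb beyond the end of HP, where HPR, the haptoglobin-related gene, begins at 72097125. Relative to that start they carried H3K27ac at -843 bp, H3K9ac/H3K27ac at -721, H3K4me3/H3K27ac at -593, "T" at -493 and -347, and H3K27ac at 267. HP, the gene with the higher FPKM, had 1 "T" within 2 kb of its start and HPR had 2.

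HPX is listed on chromosome 11 from 6452268 to 6468623 on the minus strand, with 2 of 201 positions marked, or 0.995% (0.121 to 3.55). Inside the locus, a single position from 6462077 to 6462216 carried H3K27ac alone, at 9.88 kb from the lower end and -6.48 kb from the higher end. In the lower flank, 1.10 kb from the locus, a single position carried H3K9me3 alone. No H3K4me3 or H3K9ac was found in the window, and the nearest "T" was 26.4 kb above. Of 3320 loci with coordinates of their own and an FPKM from 10 to under 100, 97.6% had at least 1 "T" in the window, 90.7% had 1 within 2 kb of the start and 3 had no marked position (0.0904%). Their median was 11 marked positions with a 10th percentile of 6. HPX, with 2, lay under that 10th percentile. The higher end of the locus is 0.346 kb below the TRIM3 locus, and whether it is the start of HPX was not tested. The whole window held no "T", so that absence does not depend on where in it the gene starts. Values taken around the higher end may not describe the start of HPX.

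ORM1 and ORM2 are listed on chromosome 9 from 117084800 to 117160923, a locus that the table also gives for AKNA, a DNA-binding protein, at an FPKM of 1.49. In the RefSeq order ORM1 lies at the lower end, then ORM2, then AKNA. Of 492 positions, 25 were marked, or 5.08% (3.31 to 7.41), all with activation marks. Near the lower end, 5 of 7 positions from 117084647 to 117086456 were marked, with H3K27ac alone at -0.083 kb, "T" at 0.772 kb, H3K4me3 alone at 1.15 kb and H3K4me3/H3K9ac at 1.32 and 1.59 kb. The second stretch, from 117089887 to 117093316, was continuous, with all 13 listed positions marked. Its first 10 positions, centred 5.16 to 6.95 kb from the lower end, carried H3K27ac without H3K4me3, 3 of them with H3K9ac. Then came 1 "T" at 7.61 kb and 2 positions with H3K4me3 alone at 7.94 and 8.45 kb.

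A run of 10 or more adjacent positions with H3K27ac and without H3K4me3 was found in the windows of 81 of the 22113 named loci, or 0.366%. A run of 13 positions with any activation mark was found at 2.18%. The ORM1/ORM2 row had only 2 "T" in its window, none adjacent, although its FPKM was the highest of the 9 rows. At the far end of the locus, on the AKNA side, 7 positions 64.8 to 75.8 kb from the lower end carried H3K4me3 alone or with H3K9ac, and no H3K27ac.

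**Figure D3:**
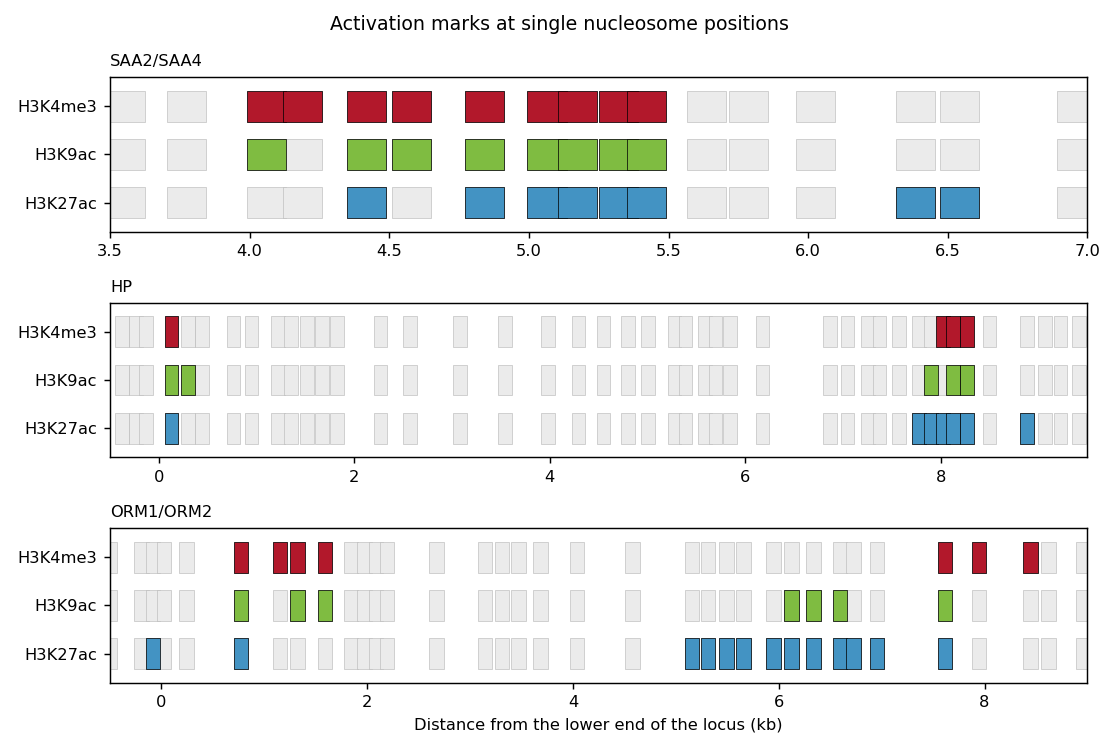
Listed nucleosome positions (boxes of 140 bp) near the lower ends of the SAA2/SAA4, HP and ORM1/ORM2 loci, filled where the position carries H3K4me3, H3K9ac or H3K27ac, by distance from the lower end in kb. At SAA2/SAA4 9 adjacent positions carry H3K4me3 and 6 of them all 3 marks, at HP a single "T" stands at the start and the others lie beyond the end at 6.45 kb, and at ORM1/ORM2 10 adjacent positions carry H3K27ac without H3K4me3.

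LBP is listed on chromosome 20 from 36974885 to 37005653 on the plus strand, with 3 of 281 positions marked, or 1.07% (0.221 to 3.09). None of the 3 lay inside the locus. H3K4me3 stood alone at 2 positions centred at -3.33 and -2.83 kb from the start, and H3K9me3 alone at -8.55 kb, in the direction of BPI, a related lipopolysaccharide-binding gene with an FPKM of 0.0210. No H3K9ac or H3K27ac was found closer than 57.1 kb above the locus or 181.3 kb below it. Of 1487 loci with an FPKM from 0.1 to under 1, 35.0% had at least 1 "T" in the window, 16.2% had 1 within 2 kb of the start and 11.6% had no marked position. LBP had 0 "T".

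ITIH4 shares the interval of chromosome 3 from 52847006 to 52931628 with MUSTN1 and TMEM110 and lies at its lower end in the RefSeq order. Of 586 positions, 10 were marked, or 1.71% (0.821 to 3.12), and none carried H3K27ac. On the ITIH4 side, 3 positions with H3K4me3 alone were centred 17.5, 17.7 and 18.0 kb from the lower end, followed by 1 with H3K9ac alone at 18.6 kb. On the side of TMEM110, 6 adjacent positions around the higher end carried H3K4me3, 3 of them with H3K9ac. ITIH3, the heavy-chain gene 3.98 kb below, had an FPKM of 44.1 and 4 "T" within 2 kb of its start. ITIH2, on another chromosome, had an FPKM of 491.0 and 7 "T" there.

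**Figure D4:**
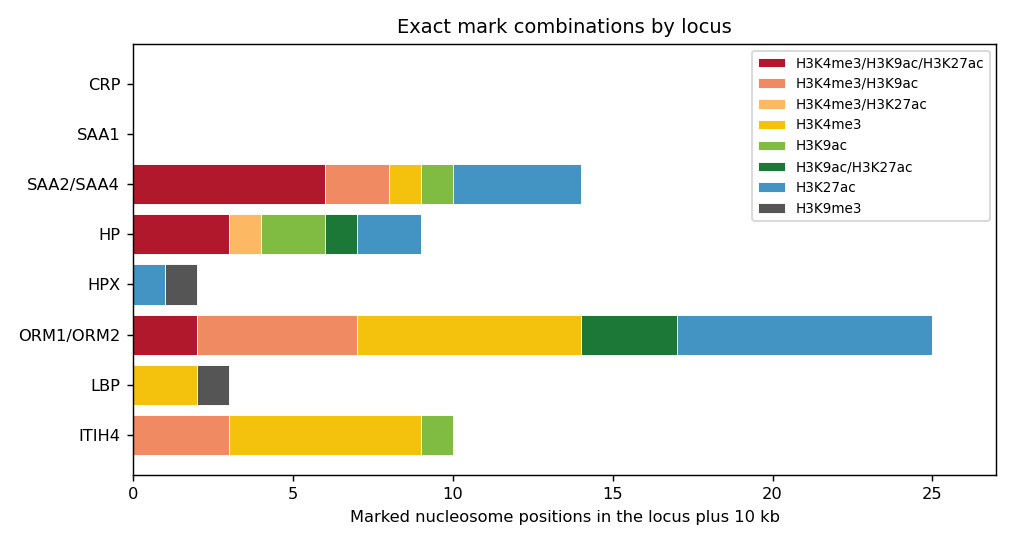
Number of marked nucleosome positions in each locus plus 10 kb, divided by the exact combination of marks. "T" was found at SAA2/SAA4 (6), HP (3) and ORM1/ORM2 (2), CRP and SAA1 had 0 marked positions, and the windows of SAA2/SAA4 and SAA1 overlap.

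Around the starts, where the locus has coordinates of its own, the number of listed positions within 2 kb was 14 at SAA1, 18 at the SAA2 end, 19 at CRP, 20 at HP, 23 at the higher end of HPX and 26 at LBP. The step between the midpoints on either side of the start was 480 bp at SAA1, 410 bp at CRP and 260 bp at HP. It was 197 bp at the higher end of HPX, 140 bp at LBP and 110 bp at the SAA2 end. Among these loci the widest steps were at SAA1 and CRP, the pair with RNA but no marked position. Steps were not computed for the other named loci, so no link between step and marks can be drawn. The paper used uniquely aligned reads, and whether the likeness of SAA1 to SAA2 affected the positions and marks listed there was not tested. Among these 6 locus ends taken as starts, that of HP had a "T" within 2 kb and the others had none, and 42.2% of the 14031 named loci with coordinates of their own did. The start of SAA4, inside its locus, was not examined.

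**Figure D5:**
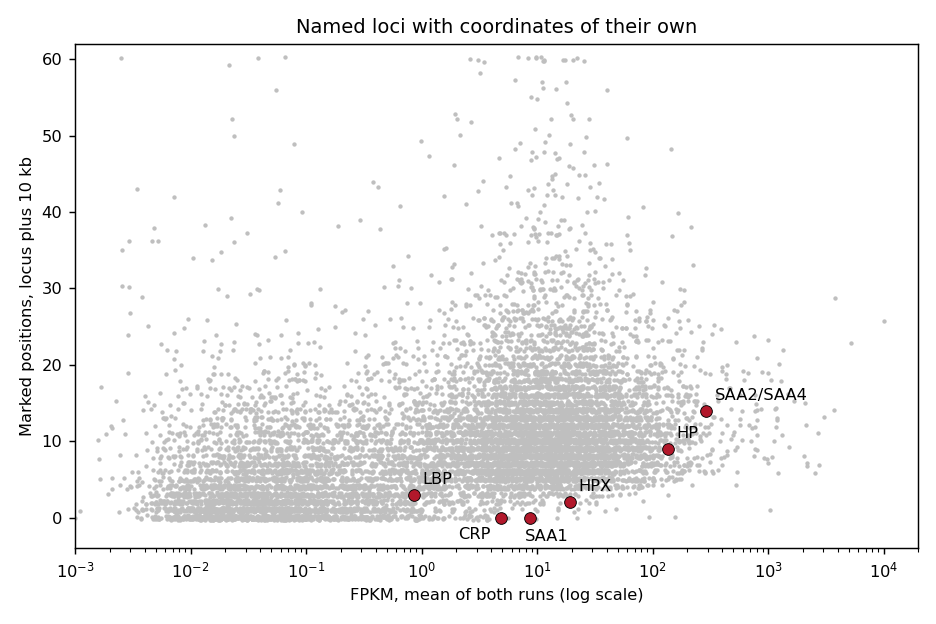
Mean FPKM of both runs (log axis) against the number of marked positions in the locus plus 10 kb, for named loci with coordinates of their own and an FPKM above 0 (grey, jittered vertically, with counts over 60 drawn at 60 and FPKM under 0.001 drawn at 0.001) and for the 6 such loci of the acute-phase genes (red). CRP, SAA1 and HPX lie at 0, 0 and 2 marked positions, below the median of 10 or 11 for their level of FPKM, and SAA2/SAA4 and HP lie at 14 and 9.

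The signalling genes that induce these proteins were expressed and marked. Of 16 genes of interleukin-6 and interleukin-1 signalling, 15 had an FPKM of at least 1, against 51.3% of all named loci. All 16 had a "T" in the window, against 63.2% of all named loci. Expressed loci often do: among those with coordinates of their own the share was 86.5% at an FPKM from 1 to under 10. It was 97.6% from 10 to under 100. The receptor chains IL6R and IL6ST had an FPKM of 10.9 and 78.5, JAK1 had 19.8, TYK2 10.1 and JAK2 2.48, and STAT3 had 31.8 with 4 "T" near its start. The exception was SOCS3, the feedback inhibitor that STAT3 induces, with an FPKM of 0.166 and 1 "T". IL1R1 had 16.2, IL1RAP 15.3, and NFKBIA, the NF-kappa-B inhibitor, 109.6 with 9 "T" near its start.

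All 7 factors of acute-phase promoters had an FPKM of at least 1 (51.3% of all named loci) and a "T" in the window (63.2%). The share with a "T" was 97.6% among loci with coordinates of their own and an FPKM from 10 to under 100. By the highest row of each gene the factors ran from NR3C1, the glucocorticoid receptor, at 11.5 to CEBPA at 71.03. CEBPB had 38.1 and HNF4A 64.6, and HNF4A also had a row at 4.65. The ligands were low, as 2 of 6 reached an FPKM of 1, LIF with 2.64 and IL1A with 1.07. IL1A reached 1 in run 2 (1.32) but not in run 1 (0.825), and its other row had a mean of 0.687. IL1B had 0.129 and TNF 0.0243, and IL6 and OSM were listed at 0. Among 8 receptors and partners of the proteins, 4 reached an FPKM of 1, a share close to the 51.3% of all named loci. HMOX1, which breaks down haem, had 47.0 and LRP1, the receptor of the haem-HPX complex, 36.7, while CD163, the receptor of the haemoglobin-HP complex, had 0.0268. CD14 and LY96 had 2.53 and 3.58, and TLR4, their partner in sensing lipopolysaccharide, 0.0805.

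The identity of the cells was checked with marker genes. All 7 hepatocyte markers were expressed, from 152.2 for TTR to 10011 for ALB. A "T" was in the window of 5 of the 7, against 97.4% of loci with coordinates of their own and an FPKM of at least 100. AFP, at 3798, and TTR had 0 "T" there, so high RNA without a "T" in the window was not particular to the acute-phase genes. Of 11 markers of blood, immune, endothelial and stellate cells, only LYZ had an FPKM of at least 1, at 1173, while PTPRC and CD3E were listed at 0. The peak lists ran from 26271 peaks of H3K27me3 to 95886 of H3K27ac.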

How the data were processed

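HepG2 was measured in 7 samples, 1 per assay. The labels list BWA and hg19 for ChIP-Seq and MNase-Seq, and TopHat2 2.1.0, Bowtie, HOMER 4.7 and edgeR for RNA-Seq, without roles. The authors called nucleosome positions with DANPOS and ChIP-Seq peaks with NUCLIZE, with limits on significance and on enrichment over input and local background, so weak marks can be missing from the lists. The deposited lists hold coordinates and identifiers without heights or read counts, and neither the reads at each position nor a stricter threshold could be examined. They hold 203848 marked positions, far fewer than the paper describes, and the cause was not tested. Each peak was assigned to the position whose identifier it carries, which is also the one it overlaps most.

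The authors deposited RNA-Seq values as FPKM in 2 columns of 1 sample in the layout of Cuffdiff, whose mean was used. Whether these are separate cultures is not given in the sources used here. The deposited fold changes, p-values and q-values compare these columns and were not used. A locus holds all overlapping genes, so rows with several symbols cannot be divided. Starts of loci were raised by 1, since end minus start equalled the RefSeq gene length for 1127 loci and was 1 bp under it for 136. The start of a gene was taken as the locus end given by the strand, from RefSeq promoters where these give it, and otherwise from the numbering of loci. The 2 sources gave the same strand for 99.3% of 8868 loci.

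Named loci are those with a symbol on chromosomes 1 to 22, X and Y, counted by row. A position was inside a window if its midpoint was. Intervals are exact Clopper-Pearson 95% and treat positions as independent, although marked positions can lie in adjacent runs. The named genes were the 10 members, lists of related genes and markers, and the locus nearest in pattern to each. Members and lists were chosen with earlier results of these data known, and the FPKM classes, the runs of positions and the 4 kb limit after the members' values were seen. One gene of the planned lists and one further planned motif are not reported here. Counting was checked on simulated data. The tools were matplotlib 3.10.9, scipy 1.17.1, pandas 2.3.3 and numpy 2.4.6 in Python 3.11.15.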

Additional observations from a re-analysis of the deposited data

How the results depend on the processing

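Of 117 values computed under alternatives, 113 stayed within 1.5 times the reported value, or within its interval for positions, or, for ratios of the runs, within 1.5-fold of the reported ratio and on the same side of 1.5-fold. The alternatives were each run alone, only loci above 0 or with coordinates of their own, a pseudocount of 1, flanks of 2, 5 and 20 kb, windows of 1 and 5 kb around the start, any overlap in place of the midpoint, marking of every overlapped position, the strand from the numbering alone and expression limits of 0.1 and 5. With flanks of 2 kb, the marked share was 15.6% at HP and 0% at LBP. Among loci above 0, the ITIH4 row of its own fell to a percentile of 11.8. With a pseudocount of 1, the log2 ratio of the runs in that row was -0.029, and that of LBP was 0.15. The number of genes in a row with a "T" was 5 with flanks of 2 and 5 kb and 6 with flanks of 20 kb. No paired analysis was possible because each assay had 1 sample. Without peak heights or read counts, weak marks at CRP, SAA1, HPX and LBP were not detectable below the authors' threshold.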

Other observations

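For each row, the named locus with its own coordinates nearest in pattern was sought over 6 values, log2(FPKM + 0.01) and log2(count + 1) of each mark, among 14027 candidates. PRDX3, a mitochondrial peroxidase, was nearest to SAA2/SAA4, with an FPKM of 324.8 and 9 positions each of H3K4me3, H3K9ac and H3K27ac. LDHA, lactate dehydrogenase, was nearest to ORM1/ORM2 with an FPKM of 395.7, and SFT2D1 to HP with 128.8. C1S, a complement protease, was nearest to HPX, with an FPKM of 28.0 and, like HPX, 1 position with H3K27ac and 1 with H3K9me3. TEX15 was nearest to LBP. SNORD89 and WASH5P were nearest to CRP and SAA1, which share the absence of any mark with 2025 of the candidates, and the values of SNORD89, a small RNA, and WASH5P, a copy of a multigene family, are uncertain. KLHL36 was nearest to the shared ITIH4 row and F2RL3 to the ITIH4 row of its own.

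SAA3P, the serum amyloid A pseudogene below SAA4, was listed at an FPKM of 0 in both runs, with 8 marked positions including 2 "T" in its window. ITIH1 had an FPKM of 2.25, with 21 marked positions and 6 "T" in its window and 0 "T" within 2 kb of its start. AMBP, the precursor of bikunin, the light chain of the inter-alpha-trypsin inhibitors, had an FPKM of 760.1 and 5 "T" within 2 kb of its start.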
